A study of Mus musculus with 36 samples.

Results

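Hepatic stellate cells (HSCs) of unchallenged mice were compared with hepatocytes of unchallenged mice by bulk RNA sequencing, using 4 HSC and 4 hepatocyte libraries out of 36 libraries in the study. The members were taken by their labels, which call both groups WT. The series text describes such animals as given PBS, in a study that also sampled both cell types and liver sinusoidal endothelial cells (LSECs) 12 h and 36 h after diphtheria toxin. The titles of those later libraries call the condition Kupffer cell depletion, the loss of the liver's resident macrophages. All 8 libraries come from liver of strain C57BL/6. The labels give no genotype beyond WT, no age and no sex, do not say how the cells were isolated, and do not say whether a library is 1 mouse or a pool, so p-values measure the spread between libraries.

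HSCs are the pericyte-like cells of the space between the sinusoidal endothelium and the hepatocytes, and they keep most of the body's vitamin A as retinyl esters in lipid droplets. Hepatocytes make most plasma proteins and carry out the liver's lipoprotein assembly, fatty acid synthesis, fatty acid oxidation and sterol synthesis. Dietary retinol passes through hepatocytes before it reaches HSCs, and both cells hold lipid droplets, so that retinoid, lipid and secreted-protein genes can be used by either or by both.

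The promoters of 4 genes that tell the cells apart are shown first. Most transcription factors known for each cell type were higher in that type, as described below. The sequences are RefSeq windows on GRCm38.p6 that run from 250 bases before a gene's start to 50 bases after it, written 5′ to 3′ on the gene's strand. Capitals mark exact matches to short motifs or their reverse complements, searched on both strands: AAGTCCA (HNF4), TTGCAAT (C/EBP), TAATTA (LHX2), AGATAA (bound by factors of the GATA family), CATCTG (an E-box of TCF21 and HAND2) and TATAAA (the core of a TATA box). Lrat and Alb are the cell type markers, and Gdf2 and Cyp3a11 had the most matches among the listed stellate and hepatocyte identity genes.
Lrat (chr3:82903925-82904224, minus strand): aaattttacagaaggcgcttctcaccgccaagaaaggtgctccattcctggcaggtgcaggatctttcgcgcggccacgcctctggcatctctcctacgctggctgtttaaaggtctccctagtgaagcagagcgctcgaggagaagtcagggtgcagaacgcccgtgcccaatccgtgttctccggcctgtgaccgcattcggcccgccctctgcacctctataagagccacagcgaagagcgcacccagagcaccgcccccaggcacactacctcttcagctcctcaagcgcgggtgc
Gdf2 (chr14:33940789-33941088, plus strand): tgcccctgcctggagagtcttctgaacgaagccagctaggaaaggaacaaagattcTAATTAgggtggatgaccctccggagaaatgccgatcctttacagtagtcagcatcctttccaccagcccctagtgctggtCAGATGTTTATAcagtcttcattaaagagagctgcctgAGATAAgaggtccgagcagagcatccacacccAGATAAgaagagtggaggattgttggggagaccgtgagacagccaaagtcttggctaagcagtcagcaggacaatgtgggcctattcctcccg
Alb (chr5:90460620-90460919, plus strand): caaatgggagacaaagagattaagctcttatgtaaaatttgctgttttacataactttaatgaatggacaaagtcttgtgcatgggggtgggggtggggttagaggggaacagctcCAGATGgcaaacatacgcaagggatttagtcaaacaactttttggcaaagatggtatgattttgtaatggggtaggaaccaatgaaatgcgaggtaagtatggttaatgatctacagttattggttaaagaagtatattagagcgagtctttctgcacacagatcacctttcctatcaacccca
Cyp3a11 (chr5:145879805-145880104, minus strand): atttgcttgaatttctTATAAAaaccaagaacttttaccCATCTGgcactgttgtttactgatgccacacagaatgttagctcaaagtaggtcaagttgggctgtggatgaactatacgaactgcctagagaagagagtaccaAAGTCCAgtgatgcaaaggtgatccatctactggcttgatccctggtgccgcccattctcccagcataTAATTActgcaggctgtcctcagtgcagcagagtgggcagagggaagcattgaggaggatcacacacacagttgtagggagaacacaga
No motif was found in the Lrat window. The Alb window holds an E-box 134 bases before the start. The Gdf2 window holds 5 matches, of which 2 are GATA motifs, and the Cyp3a11 window holds 4. Of the 30 stellate identity genes 22 had a window, and of the 30 hepatocyte identity genes 23 had one, with 25 windows each. The LHX2 motif was in 2 of 25 stellate windows and 1 of 25 hepatocyte windows, against 5.29% of all 32851 windows. The GATA motif was in 3 of 25 stellate windows and 7 of 25 hepatocyte windows, against 11.2% of all windows. The TATAAA motif, at any place in the window and on either strand, was in 4 and 8, against 13.6%. The E-box was in 5 of 25 stellate windows and 3 of 25 hepatocyte windows, against 17.2% of all windows. The C/EBP motif was in 0 stellate and 2 hepatocyte windows (2.22% of all), and the HNF4 motif in 0 and 1 (4.17% of all). A match is not evidence of binding.

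The HSC libraries held 25935283 to 31734631 counts and the hepatocyte libraries 27103264 to 30269160, over 24421 gene symbols. The HSC libraries had a count for 14505 to 14676 genes and the hepatocyte libraries for 12717 to 13397. Levels are given in CPM, counts scaled to a common library size, with the sizes adjusted by the trimmed mean of M-values (TMM). Hepatocyte libraries stood apart in pairs: replicates 1 and 2 had 508 and 521 CPM of the nuclear RNA Malat1, and replicates 3 and 4 had 49.7 and 37.5 CPM, against 1268 to 1726 CPM in HSC libraries. Hepatocyte replicates 3 and 4 also had more Scd1, Fasn, Apob, Cps1 and C3 RNA than replicates 1 and 2, so results on these genes are also given against each pair. HSC replicates 1 and 2 had more Apoe, Clu, Itih3, C4b and Lrp1 RNA than HSC replicates 3 and 4. Whether the library pairs share a cell isolation or a sequencing run is not given in the sources used here. A list of 25 dissociation and heat shock genes took 0.464, 1.19, 0.380 and 0.360% of counts in HSC replicates 1 to 4. In hepatocyte replicates 1 to 4 it took 0.371, 0.317, 0.156 and 0.152%. The part of these genes in the differences was not tested.

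The cell types differed at most genes. Of 13389 genes tested with edgeR's quasi-likelihood test, 10595 (79.1%) passed a Benjamini-Hochberg adjusted p of 0.05, with 5785 (43.2%) higher in HSCs and 4810 (35.9%) higher in hepatocytes. At 2-fold or more, 4362 genes (32.6%) were higher in HSCs and 3431 (25.6%) were higher in hepatocytes. The groups did not overlap at 9895 genes (73.9%), and the median log2 fold change of HSC over hepatocyte was 0.18. Without TMM scaling, on library totals alone, this median was 0.86, a shift of 0.68. On that scale 7751 genes were higher in HSCs and 3185 in hepatocytes, so that 70.9% of the calls were higher in HSCs, against 54.6% with TMM scaling. Of the 7793 genes called at 2-fold or more, 7586 were called in the same direction against hepatocyte replicates 1 and 2 alone, and 7626 against replicates 3 and 4 alone. In the opposite direction 0 and 1 were called. These fits reuse the libraries that chose the genes, so high agreement was largely built in.

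The identity genes fully separated the preparations. All 30 genes of a stellate identity list were higher in HSCs, and all 30 genes of a hepatocyte identity list were higher in hepatocytes, with medians on the log2 scale of 15.36 and -8.96. With the 11 stellate genes at 0 in hepatocytes set to their bound, the stellate median was 13.82. Lrat, the enzyme that esterifies retinol for storage (chromosome 3, 82892579 to 82903973, mm10), had 3102, 2505, 3357 and 2663 CPM in HSC libraries and no count in any hepatocyte library. Against a floor of 3 counts over the 4 hepatocyte libraries, it was at least 76816-fold higher in HSCs (edgeR adjusted p = 3.15e-10). Alb, serum albumin (chromosome 5, 90460897 to 90476602), had 141, 138, 209.8 and 161 CPM in HSC libraries, against 37151, 37706, 55343 and 55849.6 CPM in hepatocyte libraries. Every hepatocyte library lay far above every HSC library, and the log2 fold change was -8.16 (SE 0.56, edgeR adjusted p = 8.18e-09).

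**Figure D1:**
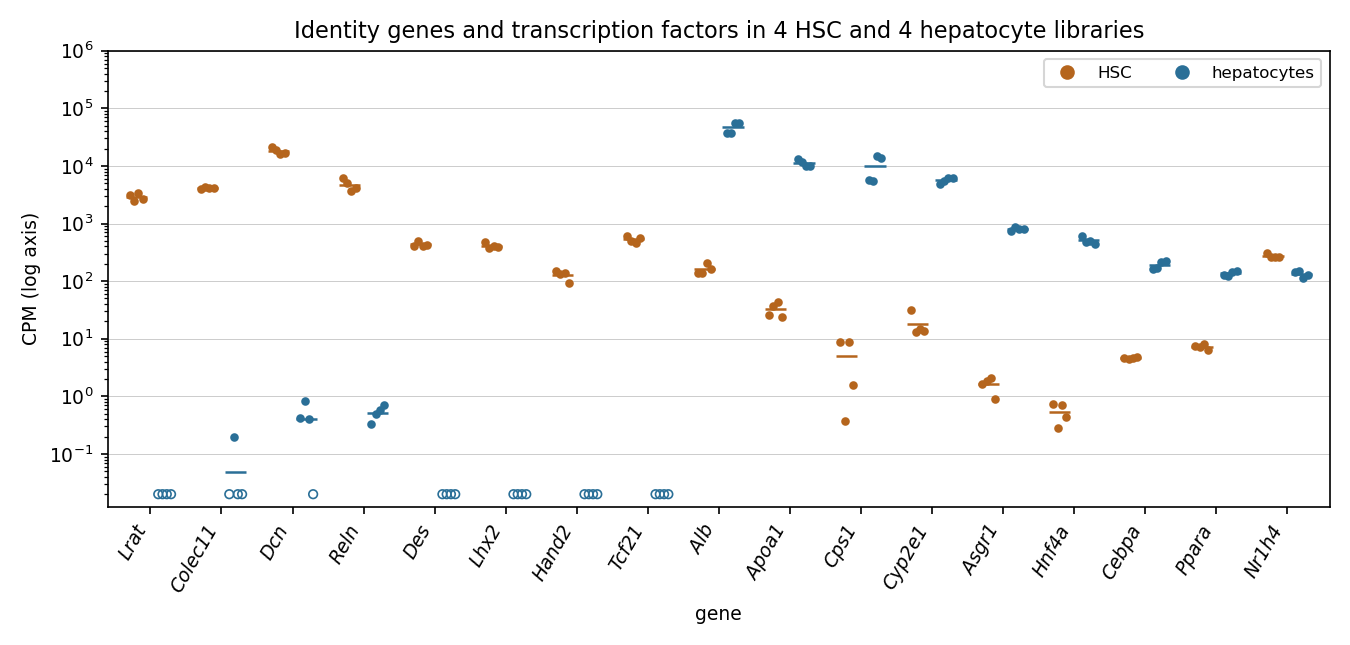
CPM (log axis) of identity genes and transcription factors in each of 4 HSC and 4 hepatocyte libraries, 1 point per library, with a line at the group mean; open points mark libraries at 0 counts. The stellate genes are at or near 0 in hepatocytes, the hepatocyte genes keep a low level in HSC libraries, and Nr1h4 is higher in HSCs.

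Colec11, a collectin of the lectin complement pathway, had 3984, 4393, 4071 and 4210.2 CPM in HSC libraries, against 0, 0.194, 0 and 0 CPM in hepatocyte libraries. Dcn, the matrix proteoglycan decorin, had 21707, 19193, 16094 and 16698 CPM in HSC libraries, against 0.424, 0.824, 0.402 and 0 CPM in hepatocyte libraries. Each of these hepatocyte values is below 1 CPM, and neither gene's groups overlapped (edgeR adjusted p = 1.35e-11 for Colec11 and 1.1e-10 for Dcn). Reln, a secreted glycoprotein that marks HSCs in mouse liver, averaged 4749 ± 1116 CPM in HSCs and 0.522 ± 0.156 CPM in hepatocytes (SD, n = 4 each). Des, the filament protein desmin, averaged 441 ± 44.0 CPM in HSCs and had no count in hepatocytes, which made it at least 11666-fold higher in HSCs. Gdf2, which encodes the growth factor BMP9, averaged 2455 ± 148 CPM in HSCs and 0.132 ± 0.228 CPM in hepatocytes (SD, n = 4 each), with a log2 fold change of 14.08.

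The listed hepatocyte markers were lower in HSCs. Apoa1, the main apolipoprotein of high-density lipoprotein, had 25.5, 37.7, 43.1 and 23.6 CPM in HSC libraries, against 13179, 11541, 9798 and 9932 CPM in hepatocyte libraries (log2 fold change -8.42, edgeR adjusted p = 4.52e-10). Cyp2e1, a P450 enzyme that oxidises ethanol and drugs, averaged 18.2 ± 8.56 CPM in HSCs and 5640.4 ± 679 CPM in hepatocytes (SD, n = 4 each). Cps1, the entry enzyme of the urea cycle, had 8.90, 0.373, 8.91 and 1.54 CPM in HSC libraries, against 5712, 5485, 15024 and 13963 CPM in hepatocyte libraries. Its log2 fold change was -10.12 against hepatocyte replicates 1 and 2 and -11.52 against replicates 3 and 4. Asgr1, a subunit of the asialoglycoprotein receptor, averaged 1.62 ± 0.499 CPM in HSCs and 814 ± 55.2 CPM in hepatocytes (SD, n = 4 each). Of the hepatocyte identity genes, 29 had at least 100 CPM in hepatocytes, and their HSC level was 0.0491% (Cps1) to 1.14% (Trf) of the hepatocyte level, with a median of 0.199%. Alb stood at 0.349% in HSC libraries, between 0.298% and 0.451% in single libraries. In the other direction, 28 stellate identity genes had at least 100 CPM in HSCs, and their hepatocyte level had a median of 0.00218% of the HSC level. In bulk libraries fewer cells of a type and less RNA per cell cannot be told apart, and likewise hepatocyte RNA from a few cells or free RNA in an HSC library and low expression in HSCs cannot be told apart.

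Transcription factors followed the same division with 2 exceptions. Of 22 tested stellate factors 21 were higher in HSCs, and of 20 tested hepatocyte factors 19 were higher in hepatocytes. Lhx2, a LIM homeobox factor needed for normal HSCs in mice, had 473, 377, 407 and 397 CPM in HSC libraries and no count in hepatocyte libraries, at least 10921-fold higher in HSCs. Tcf21 and Hand2, both basic helix-loop-helix factors of mesenchyme, averaged 533 ± 66.6 and 129 ± 24.7 CPM in HSCs (SD, n = 4) and also had no count in hepatocytes. Gata4, a zinc finger factor, averaged 269 ± 38.3 CPM in HSCs and 16.6 ± 4.81 CPM in hepatocytes (SD, n = 4 each, log2 fold change 4.02), while LSECs, at 772 CPM, were above HSCs (edgeR adjusted p = 2.62e-05). Hnf4a, the nuclear receptor that governs much of the hepatocyte programme, had 0.727, 0.28, 0.698 and 0.441 CPM in HSC libraries, against 617, 479.5, 492 and 446 CPM in hepatocyte libraries. Cebpa, a leucine zipper factor, averaged 4.67 ± 0.139 CPM in HSCs and 193 ± 32.6 CPM in hepatocytes (SD, n = 4 each).

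The exceptions were Nr1h4 and Pparg. Nr1h4, the bile acid receptor FXR, had 311, 263, 266 and 268 CPM in HSC libraries, against 143, 147, 113 and 130.2 CPM in hepatocyte libraries. All 4 HSC libraries were above all 4 hepatocyte libraries, the log2 fold change was 1.06 (SE 0.13, edgeR adjusted p = 3.24e-06), and LSECs had 0.682 CPM. Pparg, a nuclear receptor described as a keeper of HSC quiescence, had 0.0582, 0.124, 0.0998 and 0 CPM in HSC libraries, against 7.21, 13.7, 18.4 and 22.2 CPM in hepatocyte libraries, a log2 fold change of -7.73. Ppara, which drives fatty acid oxidation genes, averaged 7.27 ± 0.786 CPM in HSCs and 136 ± 13.8 CPM in hepatocytes (SD, n = 4 each), 5.34% of the hepatocyte level.

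The 10 genes with the largest log2 fold change in each direction were taken from the 2503 called genes whose higher group averaged 100 CPM or more and whose groups did not overlap (1051 higher in HSCs, 1452 in hepatocytes). The 10 on the HSC side were Lrat, Pth1r, Pdgfrb, Hgf, Tnfrsf11b, Gdf10, Ntn1, Disp2, Fhl1 and Lama1, and none had a count in any hepatocyte library. Pth1r, the receptor of parathyroid hormone, averaged 2348 ± 240.2 CPM in HSCs and was at least 62045-fold higher there. Pdgfrb, the receptor through which platelet-derived growth factor acts on HSCs, averaged 1541 ± 256 CPM and was at least 40712-fold higher. Hgf, the hepatocyte growth factor, had 1322, 1263, 1190.1 and 1116 CPM in HSC libraries and was at least 32313-fold higher than in hepatocytes, with 73.5 ± 33.5 CPM in LSECs (SD, n = 4). Tnfrsf11b, the decoy receptor osteoprotegerin, averaged 1057 ± 238 CPM, Gdf10, a BMP family ligand, 966 ± 59.1 CPM, and Lama1, a laminin chain, 834 ± 92.1 CPM in HSCs (SD, n = 4 each).

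The 10 on the hepatocyte side included Mlxipl, Adh4, Sult2a1, Sult2a2, Bdh1, A1cf, Rgs16 and Dmgdh. Mlxipl, the glucose-responsive factor ChREBP, had 0, 0, 0 and 0.0551 CPM in HSC libraries, against 161, 204, 121 and 135 CPM in hepatocyte libraries. A1cf, a cofactor of Apob RNA editing, averaged 0.045 ± 0.0304 CPM in HSCs and 119 ± 15.2 CPM in hepatocytes, and Bdh1, a ketone body enzyme, averaged 0.0789 ± 0.0623 and 216 ± 51.4 CPM in HSCs and hepatocytes (SD, n = 4 each). The sulfotransferases Sult2a1 and Sult2a2 are near-identical copies whose reads may be shared, so their separate values (523 and 502 CPM in hepatocytes) are uncertain. The HSC levels of these 8 genes were 0.00887% to 0.0466% of the hepatocyte levels. The genes were chosen for their fold changes, so levels below the 0.349% of Alb follow from that choice.

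Secreted proteins took a large share of both transcriptomes, but different ones. Genes of the 4 plasma protein lists (apolipoproteins, complement, coagulation and other plasma proteins) made up 5.38 to 7.48% of HSC counts and 24.3 to 27.2% of hepatocyte counts. Ecm1 is in the other plasma protein list and in the matrix list, and without it the plasma protein share was 2.61 to 3.32% of HSC counts and 24.3 to 27.2% of hepatocyte counts. Matrix genes made up 10.3 to 12.4% of HSC counts and 0.34 to 0.702% of hepatocyte counts. In CPM per kilobase of exon, Ecm1, a secreted matrix protein, was the highest gene of HSCs at 12018, followed among the named genes by Igfbp7 (rank 4, 3481), Dcn (rank 5, 3156) and Colec11 (rank 7, 2569). In hepatocytes Alb was the highest gene at 19860.0 CPM per kilobase, and Apoe (rank 3, 15586), Trf (rank 4, 12583) and Apoa1 (rank 5, 8991) followed. Apoe was the only one of these 8 within the first 20 of both cell types, at rank 18 in HSCs with 1112 CPM per kilobase.

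By list, matrix genes were mostly higher in HSCs (50 of 57 tested, 5 higher in hepatocytes). Secreted growth factors were split, with 30 of 49 higher in HSCs and 16 higher in hepatocytes. Of all tested genes 43.2% were higher in HSCs and 35.9% higher in hepatocytes, so the growth factors' hepatocyte part was near the share of all genes. Plasma protein genes were mostly higher in hepatocytes: 24 of 25 apolipoprotein and lipoprotein assembly genes, 24 of 32 coagulation genes, 37 of 39 other plasma proteins and 19 of 35 complement genes. Complement held the most exceptions, with 9 genes higher in HSCs and 7 not called. The medians of these lists on the log2 scale were 12.55 for matrix, 3.89 for growth factors, -8.06 for apolipoproteins, -7.88 for coagulation, -8.07 for other plasma proteins and -2.41 for complement, against 0.18 for all genes. With genes at 0 in hepatocytes set to their bound, the matrix median was 10.45 and the growth factor median 3.75.

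**Figure D2:**
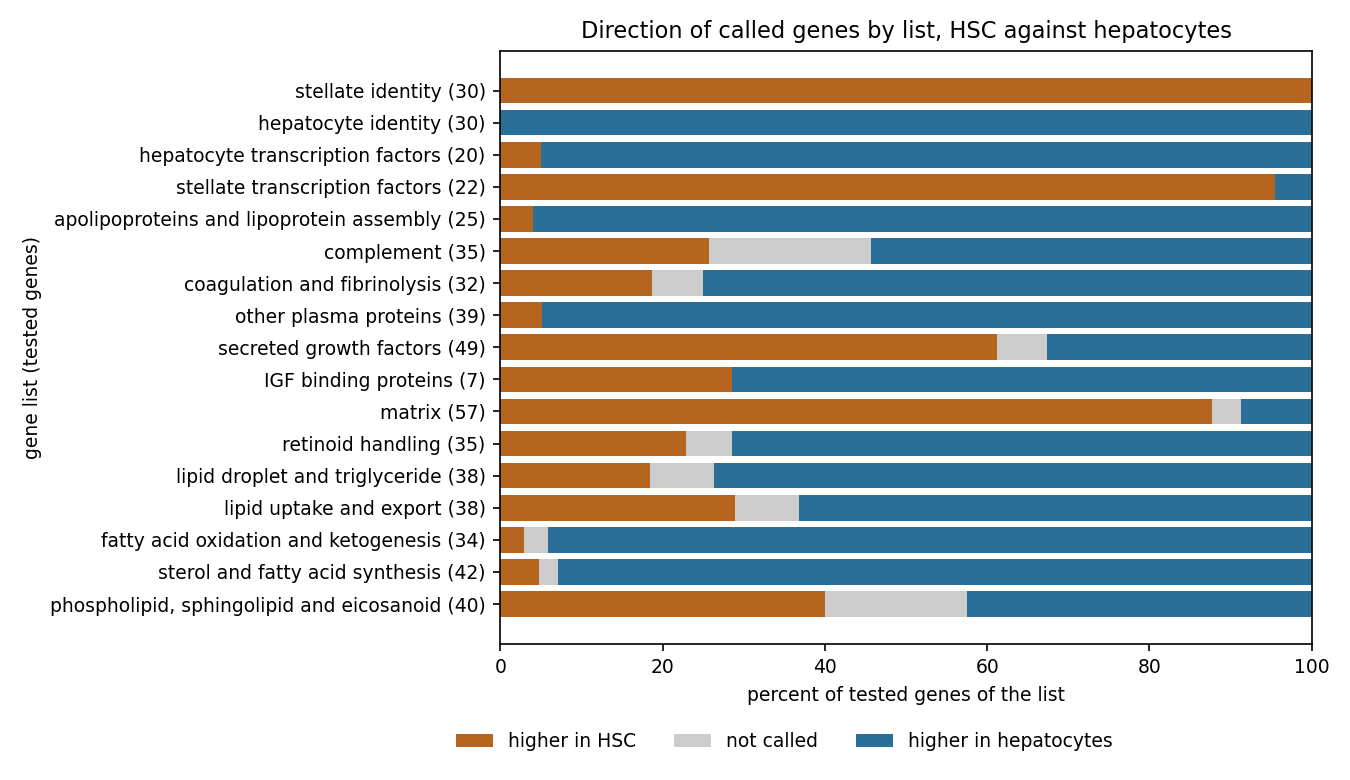
Percent of the tested genes of each list that were higher in HSCs, not called, or higher in hepatocytes (edgeR, adjusted p under 0.05), with the number tested in brackets. Among the secreted and lipid lists, most matrix and growth factor genes were higher in HSCs, and almost no oxidation and synthesis genes were. Complement (9 of 35) and phospholipid (16 of 40) lists were divided, with HSC-higher shares below the 43.2% of all tested genes.

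A gene was counted as expressed by both cell types if each of the 8 libraries had at least 10 CPM and if the level in each group exceeded what the marker ratios allow. The HSC mean had to be over 3.49% of the hepatocyte mean (10 times the Alb ratio), and the hepatocyte mean over 0.013% of the HSC mean (10 times the Lrat floor). This Lrat limit removed 0 secreted and 0 lipid genes that had 10 CPM in each library. For the listed genes only the 10 CPM level therefore acted on the hepatocyte side, and HSC RNA in hepatocyte libraries was not further tested. Of 253 secreted-protein genes 47 had 10 CPM in each library and 23 met the whole rule, and of 248 lipid and retinoid genes 107 had 10 CPM and 98 met it. Of all 24421 symbols, 5466 had 10 CPM in each library and 5408 met the rule. The 24 secreted genes that had the level but missed the rule all missed it on the Alb side, with HSC levels of 0.235% (Apoa2) to 1.96% (Vtn) of the hepatocyte level and a median of 0.36%. The nearest secreted gene within the rule was Itih3, at 5.15%. C3, the central complement protein, had 39.8, 47.2, 36.2 and 37.9 CPM in HSC libraries, against 11087, 9168, 20798 and 15998 CPM in hepatocyte libraries, and its HSC level of 0.282% of the hepatocyte level lies below the Alb ratio.

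**Figure D3:**
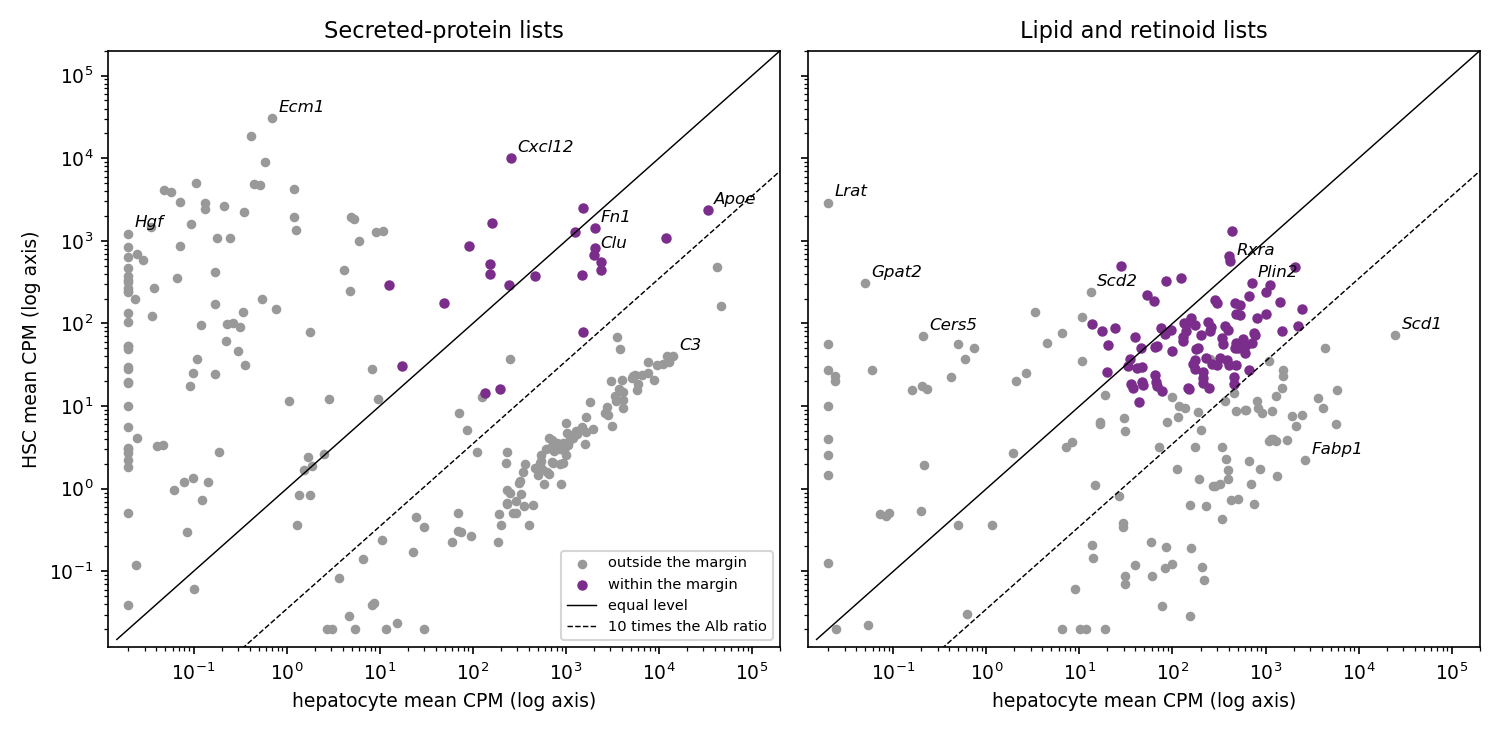
Mean CPM in HSCs (vertical, log axis) against mean CPM in hepatocytes (horizontal, log axis) for the tested genes of the secreted-protein lists and of the lipid and retinoid lists, with means under 0.02 CPM drawn at 0.02. Filled purple points met the rule for expression by both cell types; most plasma protein genes lie along a band below the dashed line, which marks 10 times the Alb ratio, while lipid genes spread between the lines.

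Of the 23 shared secreted genes, 9 were higher in HSCs, 10 were higher in hepatocytes and 4, among them C1ra, C1s1 and Fn1, were not called. The 9 were Cxcl12, Masp1, Serping1, C2, Pros1, Pltp, Mmp14, Nid2 and Vegfb, and the 10 were Apoe, Clu, C4b, Cfb, C1rl, Cp, Itih3, Igfbp4, Pon3 and Sepp1. Complement gave the most members, 9 of 23, from the classical pathway proteases to the regulators. The rule's own thresholds set which genes could enter, so these counts describe the shared genes only. Mmp14, a membrane protease of matrix, averaged 178 CPM in HSCs and 48.6 CPM in hepatocytes, Nid2, a basement membrane protein, 292 and 12.7 CPM, and Vegfb, a growth factor, 30.3 and 17.4 CPM in HSCs and hepatocytes. Itih3, a hyaluronan-binding plasma protein, averaged 78.1 CPM in HSCs and 1517 CPM in hepatocytes, and Pon3, an esterase carried on lipoproteins, 14.4 and 134 CPM in HSCs and hepatocytes.

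Among the classical pathway genes, C1ra and C1s1, which encode the proteases of the C1 complex, were not called different. C1s1 had 456, 441, 301 and 324 CPM in HSC libraries, against 367, 341, 601 and 571 CPM in hepatocyte libraries, and C1ra had 376, 353, 206 and 221 CPM in HSC libraries, against 179, 176, 334 and 299 CPM in hepatocyte libraries. The groups overlapped for both, with log2 fold changes of -0.30 (SE 0.26, edgeR adjusted p = 0.297) and 0.23 (SE 0.25, edgeR adjusted p = 0.408). On library totals C1s1 was 0.40 and C1ra 0.94, where C1ra was called (edgeR adjusted p = 0.000992). Against hepatocyte replicates 1 and 2 alone C1ra was called higher in HSCs (log2 fold change 0.73, edgeR adjusted p = 0.0147), and against replicates 3 and 4 alone it was -0.13 (edgeR adjusted p = 0.621). Against replicates 3 and 4 C1s1 was called higher in hepatocytes, at -0.62 (edgeR adjusted p = 0.0396). C2, the protease of the classical convertase, had 421, 443, 361 and 371 CPM in HSC libraries, against 110.1, 98.0, 232 and 175 CPM in hepatocyte libraries. No library overlapped, and the log2 fold change was 1.38 (SE 0.25, edgeR adjusted p = 0.000155).

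C4b, the substrate of C1s, had 960.0, 1263, 474 and 625 CPM in HSC libraries, against 1117, 959, 3436 and 2704 CPM in hepatocyte libraries. The groups overlapped, since hepatocyte replicates 1 and 2 were below the highest HSC library, and the call of a lower level in HSCs (log2 fold change -1.31, SE 0.49, edgeR adjusted p = 0.026) was lost without HSC replicate 3 or 4 or hepatocyte replicate 3 or 4 (adjusted p of 0.0612 to 0.0953). Against hepatocyte replicates 1 and 2 it was -0.30 (edgeR adjusted p = 0.581), and against replicates 3 and 4 it was -1.89 (edgeR adjusted p = 0.00313). C4a, the near-identical neighbour, may share its reads. Serping1, which encodes the C1 inhibitor, had 2638, 2761, 2140.4 and 2569 CPM in HSC libraries, against 1193, 1175, 2154 and 1609 CPM in hepatocyte libraries. The highest hepatocyte library just passed the lowest HSC library, and the log2 fold change was 0.72 (SE 0.26, edgeR adjusted p = 0.0206). That call was lost without hepatocyte replicate 1 or 2 (edgeR adjusted p = 0.0572 and 0.0565) and held against replicates 1 and 2 alone (log2 fold change 1.12), but not against 3 and 4 alone (0.43, edgeR adjusted p = 0.163).

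In the alternative pathway, Cfb, the protease of the convertase, had 413, 549.6, 398 and 419 CPM in HSC libraries, against 2016, 1937, 2898 and 2583 CPM in hepatocyte libraries. It was lower in HSCs without overlap (log2 fold change -2.41, edgeR adjusted p = 6.03e-08).

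The lectin pathway was divided gene by gene. Masp1, the collectin-associated protease, had 1789.7, 1942, 1416 and 1398 CPM in HSC libraries, against 102, 94.7, 229 and 216 CPM in hepatocyte libraries (log2 fold change 3.35, edgeR adjusted p = 1.39e-07). Masp2, its paralogue, 54.9% of whose exon bases lie over exons of Tardbp on the opposite strand, averaged 0.882 ± 0.244 CPM in HSCs and 249 ± 69.8 CPM in hepatocytes (SD, n = 4 each), in the opposite direction (log2 fold change -8.14). Among the recognition proteins, Colec10 averaged 3887 ± 194 CPM in HSCs and 0.0574 ± 0.115 CPM in hepatocytes, and the ficolin Fcna averaged 1971 ± 634 and 1.19 ± 1.19 CPM in HSCs and hepatocytes (SD, n = 4 each). Mbl2, a mannose-binding lectin, averaged 2.01 ± 0.528 CPM in HSCs and 857 ± 105 CPM in hepatocytes (SD, n = 4 each), and Colec11 followed Colec10. C6, a part of the terminal pore, averaged 246 ± 27.6 CPM in HSCs and 4.85 ± 2.38 CPM in hepatocytes (SD, n = 4 each), whereas the terminal genes Hc, C8a, C8b, C8g and C9 were all higher in hepatocytes.

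**Figure D4:**
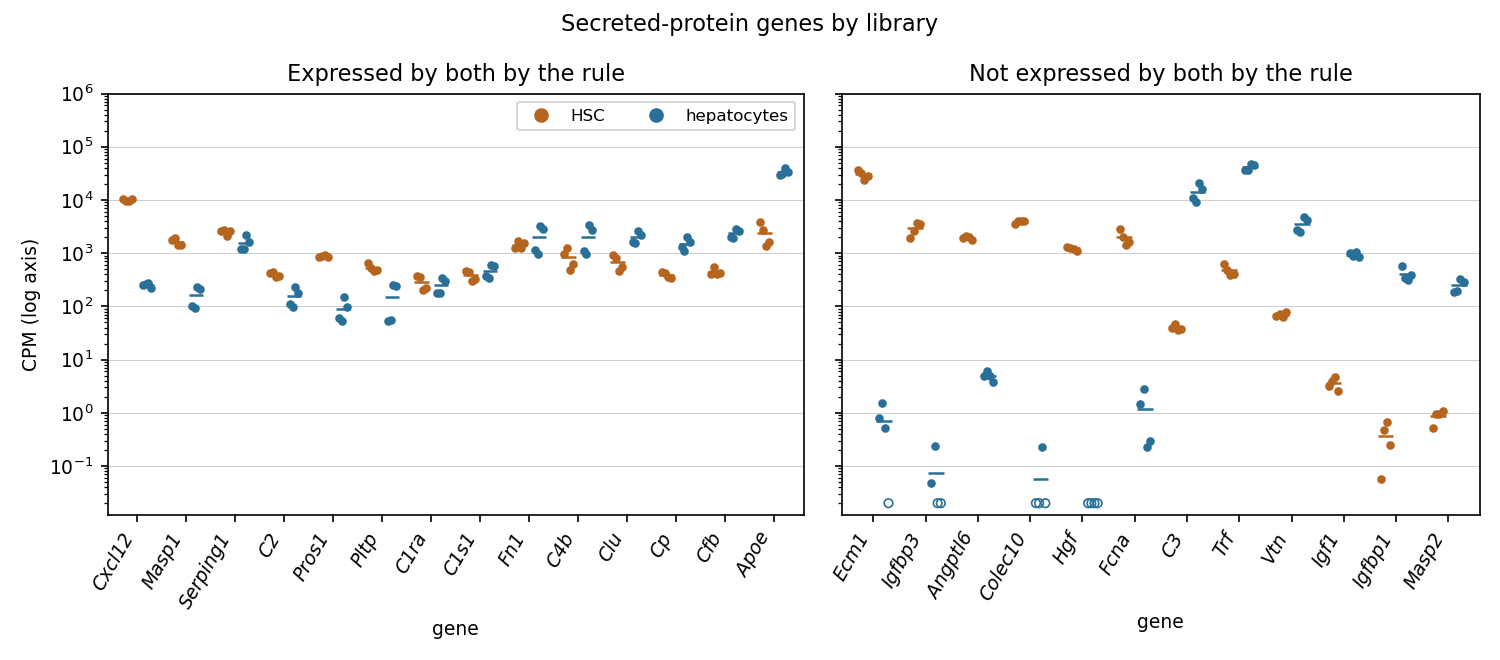
CPM (log axis) of secreted-protein genes in each of 4 HSC and 4 hepatocyte libraries, 1 point per library, with a line at the group mean and open points for libraries at 0. The left panel holds genes expressed by both cell types by the rule, from Cxcl12 (HSC mean 10026 CPM) to Apoe (hepatocyte mean 33322 CPM); the right panel holds genes that were not.

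Among coagulation genes Pros1 was the only shared one. Pros1, the anticoagulant protein S, had 842, 875, 929 and 851 CPM in HSC libraries, against 59.4, 52.5, 149 and 99.1 CPM in hepatocyte libraries. All HSC libraries were higher (log2 fold change 3.28, edgeR adjusted p = 1.38e-07), and LSECs, at 1024 ± 59.6 CPM (SD, n = 4), were not called different from HSCs (edgeR adjusted p = 0.495). Other coagulation genes higher in HSCs included Thbd, Tfpi, Plat and Vwf, with HSC means of 100.01, 60.9, 5.53 and 0.957 CPM, all named after their values were seen. The endothelial markers described further on were present in the HSC libraries too, and their part in these values was not tested.

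Among apolipoproteins, Apoe, the ligand of lipoprotein receptors, had 3815, 2693, 1388 and 1615 CPM in HSC libraries, against 29174, 31250.0, 39071 and 33794 CPM in hepatocyte libraries. It was lower in HSCs without overlap (log2 fold change -3.81, SE 0.37, edgeR adjusted p = 3.73e-07), at 7.14% of the hepatocyte level, and LSECs had 4611 ± 632 CPM (SD, n = 4). Clu, the chaperone clusterin, had 914, 799.9, 464 and 545 CPM in HSC libraries, against 1599, 1574, 2639 and 2159 CPM in hepatocyte libraries, with no overlap and a log2 fold change of -1.55 (SE 0.28, edgeR adjusted p = 0.000152). Clu was at 22.3 CPM in LSECs. Pltp, the phospholipid transfer protein, was the only list member higher in HSCs: it had 662, 520.3, 466 and 479.8 CPM in HSC libraries, against 53.1, 55.6, 257 and 241 CPM in hepatocyte libraries. Its difference was larger against hepatocyte replicates 1 and 2 (log2 fold change 3.32) than against 3 and 4 (1.10), and 19.3% of its exon bases lie over exons of Ctsa on the opposite strand. Apob, the structural protein of very-low-density lipoprotein, averaged 20.7 ± 4.11 CPM in HSC libraries, against 1872, 2002, 5782 and 6309.7 CPM in hepatocyte libraries, 0.518% of the hepatocyte level and outside the rule. The log2 fold changes against hepatocyte replicates 1 and 2 and against replicates 3 and 4 were -6.52 and -8.19 for Apob and -7.95 and -8.83 for C3.

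Of the other plasma proteins, Cp, the copper oxidase ceruloplasmin, had 433, 422, 349.7 and 336 CPM in HSC libraries, against 1279, 1079.7, 2021 and 1653 CPM in hepatocyte libraries (log2 fold change -1.97, edgeR adjusted p = 7.47e-06). Sepp1, the selenium carrier, had 1096, 945, 1139 and 1100.1 CPM in HSC libraries, against 13893, 14611, 9789 and 9190.1 CPM in hepatocyte libraries (log2 fold change -3.47, edgeR adjusted p = 3.16e-08). Neither overlapped, and LSECs had 2.16 CPM of Cp and 15475 CPM of Sepp1, so that Cp was higher in HSCs than in LSECs (edgeR adjusted p = 2.77e-10) and Sepp1 lower (edgeR adjusted p = 3.14e-08). Trf, transferrin, averaged 478 ± 112 CPM in HSCs and 41777 ± 5981 CPM in hepatocytes, and Vtn, vitronectin, averaged 68.9 ± 6.52 and 3521 ± 1072 CPM in HSCs and hepatocytes (SD, n = 4 each). Serpinf1, the secreted pigment epithelium-derived factor, averaged 4.98 ± 0.517 CPM in HSCs and 1277 ± 397 CPM in hepatocytes (SD, n = 4 each), 0.39% of the hepatocyte level.

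Growth factors and their binding proteins divided by member. Cxcl12, the chemokine that retains blood cell progenitors, had 10582, 9540.3, 9632 and 10350.1 CPM in HSC libraries, against 256, 263, 274 and 225 CPM in hepatocyte libraries. Both groups were narrow and far apart (log2 fold change 5.30, SE 0.32, edgeR adjusted p = 2.01e-09), and LSECs had 3.03 CPM. Igf1, the circulating growth factor, averaged 3.63 ± 0.977 CPM in HSCs and 940.4 ± 96.1 CPM in hepatocytes (SD, n = 4 each), 0.386% of the hepatocyte level. Of 7 tested IGF binding protein genes, 2 were higher in HSCs and 5 in hepatocytes. Igfbp3, the main carrier of circulating IGF, had 1897, 2642, 3622 and 3558 CPM in HSC libraries, against 0.0471, 0.242, 0 and 0 CPM in hepatocyte libraries. Igfbp7 averaged 4208 ± 529 CPM in HSCs and 1.195 ± 0.856 CPM in hepatocytes, and LSECs, at 3568 CPM, were not called different from HSCs (edgeR adjusted p = 0.567). Igfbp1 and Igfbp2 averaged 0.359 ± 0.263 and 2.11 ± 0.595 CPM in HSCs, against 404 ± 119.7 and 714 ± 122 CPM in hepatocytes (SD, n = 4 each). Igfbp4 was the shared member, with 620.3, 551, 539 and 512 CPM in HSC libraries, against 2173, 2106, 2868 and 2507 CPM in hepatocyte libraries (log2 fold change -2.12, edgeR adjusted p = 6.61e-08).

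Fn1, fibronectin, which circulates in plasma and is also laid down in matrix, had 1261, 1707, 1255 and 1524 CPM in HSC libraries, against 1155, 967, 3188 and 2874 CPM in hepatocyte libraries. HSC libraries lay between the hepatocyte pairs, and no difference was called (log2 fold change -0.51, SE 0.35, edgeR adjusted p = 0.195). On library totals its value was 0.22, against hepatocyte replicates 1 and 2 it was 0.46 (edgeR adjusted p = 0.0772), and against replicates 3 and 4 it was called lower in HSCs, at -1.08 (edgeR adjusted p = 0.000662). Col3a1, a fibrillar collagen chain, averaged 2672 ± 442 CPM in HSCs and 0.215 ± 0.43 CPM in hepatocytes, and Col18a1, the collagen that yields endostatin, averaged 11.2 ± 2.21 and 1803 ± 1012 CPM in HSCs and hepatocytes (SD, n = 4 each). The 5 matrix genes higher in hepatocytes were Col18a1, Vtn, Mmp19, Col15a1 and Col12a1, named after their values were seen.

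Lipid and retinoid genes were more often shared, and mostly at a higher level in hepatocytes. Their summed share was 1.71 to 1.89% of HSC counts and 6.87 to 11.5% of hepatocyte counts. Of the 98 shared lipid genes, 14 were higher in HSCs, 74 were higher in hepatocytes and 10 were not called, with a median log2 fold change of -1.88. The 5 with the smallest differences were Sptlc1, Ugcg, Rxrb, Plin3 and Smpd1. Msmo1, at 4.02% of the hepatocyte level, was the lowest HSC share within the rule, and Dbi, at 3.23%, the highest share outside it.

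For retinoids, 8 of 35 tested genes were higher in HSCs, 25 were higher in hepatocytes and 2 were not called. Of all tested genes 43.2% were higher in HSCs and 35.9% higher in hepatocytes. Rbp4, the plasma carrier of retinol, averaged 15.7 ± 3.89 CPM in HSCs and 5855 ± 645 CPM in hepatocytes (SD, n = 4 each), and its HSC level was 0.268% of the hepatocyte level. Bco1, which cleaves beta-carotene to retinal, averaged 121 ± 24.0 CPM in HSCs and 10.7 ± 2.57 CPM in hepatocytes (SD, n = 4 each, log2 fold change 3.49), with 0.206 CPM in LSECs.

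The retinoid enzymes Aldh1a1, Dhrs3, Retsat and Adh1 were higher in hepatocytes. Aldh1a1, a retinal dehydrogenase, had 249.8, 242, 219 and 249.9 CPM in HSC libraries, against 845, 1066, 925 and 1204 CPM in hepatocyte libraries (log2 fold change -2.07, edgeR adjusted p = 1.63e-05). Dhrs3, a retinal reductase, had 97.6, 77.2, 71.6 and 46.2 CPM in HSC libraries, against 128, 172, 258 and 259 CPM in hepatocyte libraries (log2 fold change -1.48, edgeR adjusted p = 8.13e-05). Both were shared without overlap, and LSECs had 0.554 CPM of Aldh1a1 and 368 CPM of Dhrs3. Retsat, the retinol saturase, averaged 43.8 ± 5.03 CPM in HSCs and 601 ± 159 CPM in hepatocytes, and Adh1, an alcohol dehydrogenase, averaged 6.07 ± 4.04 and 5654 ± 571 CPM in HSCs and hepatocytes (SD, n = 4 each), outside the rule.

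Of the receptors, Rxra, Rara, Rarb and Rarg were higher in HSCs, Rxrb was not called, and Rxrg was higher in hepatocytes (0.208 CPM in HSCs and 13.8 CPM in hepatocytes, log2 fold change -6.04, edgeR adjusted p = 5.42e-10). Rxra, the common partner of nuclear receptors, had 565, 603, 521 and 590.1 CPM in HSC libraries, against 392, 343, 485 and 446 CPM in hepatocyte libraries. Its HSC libraries were all above its hepatocyte libraries by a small margin (log2 fold change 0.45, SE 0.14, edgeR adjusted p = 0.00847). With replicates 3 and 4 of both cell types alone, Rxra was not called (0.27, edgeR adjusted p = 0.0683). Rara averaged 87.6 ± 8.59 CPM in HSCs and 24.3 ± 6.34 CPM in hepatocytes, and Rarb, 34.1% of whose exon bases lie over exons of Top2b on the opposite strand, averaged 77.1 ± 12.1 and 6.45 ± 2.39 CPM in HSCs and hepatocytes (SD, n = 4 each). Rxrb had 55.9, 47.2, 49.1 and 51.5 CPM in HSC libraries, against 47.3, 42.7, 52.0 and 42.3 CPM in hepatocyte libraries, and was not called (log2 fold change 0.14, edgeR adjusted p = 0.216), though on library totals it was called higher in HSCs at 0.83 (edgeR adjusted p = 1.01e-05).

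Lipid droplet and triglyceride genes were higher in hepatocytes at 28 of 38 tested genes, higher in HSCs at 7 and not called at 3. The shares of all tested genes were 35.9% higher in hepatocytes and 43.2% higher in HSCs. Plin2, the coat protein of droplets in most cells, had 305, 311, 298 and 327 CPM in HSC libraries, against 834, 709, 653 and 647 CPM in hepatocyte libraries. It was lower in HSCs without overlap (log2 fold change -1.197, SE 0.13, edgeR adjusted p = 1.6e-06). Plin3, a coat protein of the same family, had 69.5, 79.5, 69.3 and 76.9 CPM in HSC libraries, against 67.6, 77.9, 92.4 and 95.2 CPM in hepatocyte libraries and was not called (log2 fold change -0.17, edgeR adjusted p = 0.199). On library totals Plin3 was called higher in HSCs, at 0.52 (edgeR adjusted p = 0.000278). It was called lower in HSCs against hepatocyte replicates 3 and 4 alone (-0.35, edgeR adjusted p = 0.00906) and without hepatocyte replicate 1 (-0.26, edgeR adjusted p = 0.0463). Plin5, the coat protein that ties droplets to mitochondria, had 0.145, 0.249, 0.299 and 0.0827 CPM in HSC libraries, against 221, 173, 121 and 117 CPM in hepatocyte libraries. Plin4 had no count in HSC libraries and 1.93, 0.533, 0.172 and 0.2 CPM in hepatocyte libraries, too few to be tested.

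Among triglyceride enzymes, Dgat1 and Dgat2, which make triglyceride, differed in how far apart the cells were. Dgat1 had 17.5, 11.8, 18.3 and 18.2 CPM in HSC libraries, against 31.6, 24.7, 46.7 and 48.2 CPM in hepatocyte libraries (log2 fold change -1.199, edgeR adjusted p = 0.000259, but -0.48 and adjusted p = 0.0506 on library totals). Dgat2 averaged 13.4 ± 2.78 CPM in HSCs and 1308 ± 356 CPM in hepatocytes (SD, n = 4 each, log2 fold change -6.61). Pnpla2, the triglyceride lipase ATGL, averaged 46.3 ± 3.37 CPM in HSCs and 99.0 ± 17.6 CPM in hepatocytes (log2 fold change -1.10), and its inhibitor G0s2 had 206, 249, 228 and 202 CPM in HSC libraries, against 41.6, 104, 31.5 and 38.2 CPM in hepatocyte libraries (log2 fold change 2.04, edgeR adjusted p = 3.82e-05). Gpat2, an acyltransferase of glycerolipid synthesis, had 324, 261, 302 and 342 CPM in HSC libraries, against 0, 0.0485, 0 and 0.15 CPM in hepatocyte libraries, and 0.104 CPM in LSECs. For cholesterol esters, Soat1 averaged 22.5 ± 2.72 CPM in HSCs and 0.415 ± 0.663 CPM in hepatocytes, and Soat2 averaged 0.121 ± 0.044 and 39.6 ± 11.8 CPM in HSCs and hepatocytes (SD, n = 4 each).

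**Figure D5:**
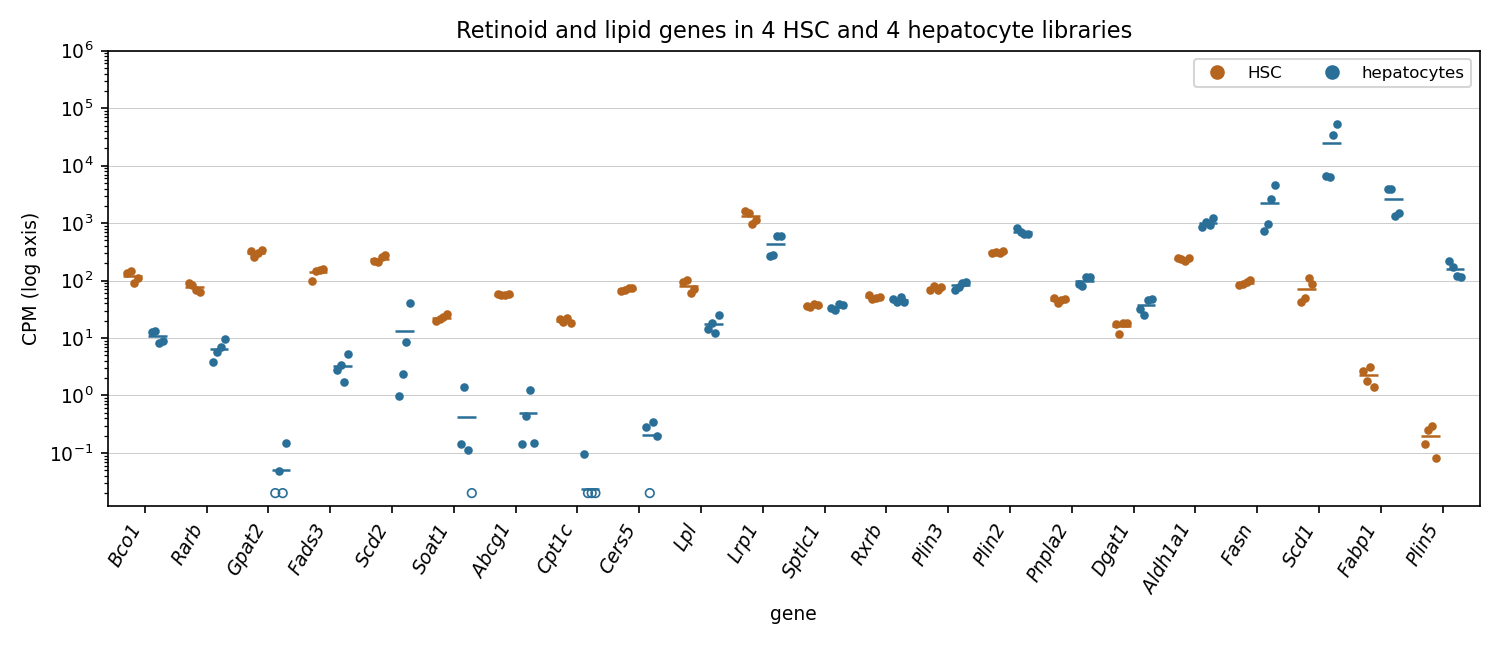
CPM (log axis) of retinoid and lipid genes in each of 4 HSC and 4 hepatocyte libraries, 1 point per library, with a line at the group mean and open points for libraries at 0. Genes run from those higher in HSCs, such as Bco1 and Gpat2, through those not called, such as Sptlc1 and Rxrb, to those higher in hepatocytes; Scd1 and Fasn show the 2 levels of the hepatocyte library pairs.

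Uptake and export genes were higher in hepatocytes at 24 of 38 tested genes (35.9% of all tested genes) and higher in HSCs at 11 (43.2% of all). Lrp1, a scavenging receptor for remnants and proteases, had 1609, 1527, 979.6 and 1155 CPM in HSC libraries, against 273, 284, 595 and 588 CPM in hepatocyte libraries (log2 fold change 1.60, SE 0.39, edgeR adjusted p = 0.0019). Lpl, the lipase of lipoprotein triglyceride, had 94.7, 101, 59.8 and 69.9 CPM in HSC libraries, against 14.1, 18.2, 12.3 and 25.6 CPM in hepatocyte libraries (log2 fold change 2.21, edgeR adjusted p = 8.58e-06). Neither gene's groups overlapped. Scarb1, the high-density lipoprotein receptor, averaged 177 ± 14.7 CPM in HSCs and 304 ± 68.3 CPM in hepatocytes (SD, n = 4 each). Scarb1 was called (log2 fold change -0.79, edgeR adjusted p = 0.000798) but was -0.08 on library totals (edgeR adjusted p = 0.611). With replicates 1 and 2 of both cell types alone, Scarb1 was not called (-0.51, edgeR adjusted p = 0.0563). Abca1, which exports cholesterol to apolipoproteins, had 135, 79.2, 82.3 and 89.6 CPM in HSC libraries, against 99.9, 82.8, 257 and 256 CPM in hepatocyte libraries and was not called (log2 fold change -0.85, edgeR adjusted p = 0.0597). It was 0.10 against hepatocyte replicates 1 and 2 and -1.41, called, against 3 and 4 (edgeR adjusted p = 0.00208). DESeq2 called it on all libraries (-0.87, adjusted p = 0.0443).

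Fatty acid binding and transport genes of this list differed to unequal degrees. Fabp1, the liver fatty acid-binding protein, had 2.62, 1.77, 3.19 and 1.38 CPM in HSC libraries, against 3984, 3875, 1343 and 1525 CPM in hepatocyte libraries (log2 fold change -10.23). Cd36, a fatty acid translocase, averaged 1.76 ± 0.557 CPM in HSCs and 112 ± 73.8 CPM in hepatocytes (SD, n = 4 each), and LSECs had 1479 CPM. Fabp4 averaged 0.495 ± 0.199 CPM in HSCs, 0.072 ± 0.0926 CPM in hepatocytes and 124 ± 41.9 CPM in LSECs (SD, n = 4 each), and its HSC over hepatocyte call (edgeR adjusted p = 0.00548) rests on levels under 1 CPM. Acsl1, a long-chain acyl-CoA synthetase, averaged 16.5 ± 2.47 CPM in HSCs and 1485 ± 389 CPM in hepatocytes, while Acsl4, which prefers arachidonate, averaged 115 ± 12.8 and 159 ± 17.7 CPM in HSCs and hepatocytes (SD, n = 4 each). The Acsl4 call (log2 fold change -0.46, edgeR adjusted p = 0.0048) changed direction on library totals, to 0.23 (edgeR adjusted p = 0.133).

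Most synthesis and oxidation genes were higher in hepatocytes, though many met the rule for expression by both cell types (17 of 42 synthesis genes and 24 of 35 oxidation genes). Of 42 sterol and fatty acid synthesis genes 39 were higher in hepatocytes, 2 (Scd2 and Fads3) were higher in HSCs and 1 (Elovl1) was not called. Of 34 oxidation and ketogenesis genes 32 were higher in hepatocytes, Cpt1c was higher in HSCs and Cpt1b, at 0 in HSC libraries, was not called. Scd1, the stearoyl-CoA desaturase of liver, had 41.6, 49.3, 113 and 86.5 CPM in HSC libraries, against 6617, 6458, 33743 and 52374 CPM in hepatocyte libraries. Its log2 fold change was -8.42 over all libraries, -6.47 against hepatocyte replicates 1 and 2 and -9.21 against 3 and 4. Scd2, its paralogue, had 223, 208, 252 and 278 CPM in HSC libraries, against 0.99, 2.33, 8.60 and 40.7 CPM in hepatocyte libraries. All HSC libraries were higher (log2 fold change 4.19, SE 0.81, edgeR adjusted p = 0.000305), and the log2 fold change was 7.21 against hepatocyte replicates 1 and 2 and 3.28 against 3 and 4.

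Fasn, the fatty acid synthase, had 85.3, 85.6, 93.0 and 104 CPM in HSC libraries, against 716, 971, 2666 and 4628 CPM in hepatocyte libraries. The hepatocyte pairs stood apart, yet HSCs were lower against each pair, with log2 fold changes of -3.17 and -5.31 against replicates 1 and 2 and against replicates 3 and 4. Fads1, a polyunsaturated fatty acid desaturase, averaged 182 ± 4.10 CPM in HSCs and 1429 ± 478 CPM in hepatocytes, and Fads3, its paralogue, averaged 139 ± 27.9 and 3.31 ± 1.48 CPM in HSCs and hepatocytes (SD, n = 4 each). Cpt1a, the gate of mitochondrial fatty acid import, averaged 92.2 ± 39.0 CPM in HSCs and 368 ± 123 CPM in hepatocytes, and Cpt1c, known from brain, averaged 20.1 ± 1.86 and 0.0236 ± 0.0471 CPM in HSCs and hepatocytes (SD, n = 4 each). Acaa2, a thiolase of mitochondrial oxidation, had the highest HSC level of its list at 624, 419, 464 and 425 CPM in HSC libraries, against 2084, 2156, 1939.7 and 2154 CPM in hepatocyte libraries (log2 fold change -2.11).

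Phospholipid, sphingolipid and eicosanoid genes were divided, with 16 of 40 tested higher in HSCs, 17 higher in hepatocytes and 7 not called, where 43.2% of all tested genes were higher in HSCs and 35.9% higher in hepatocytes. On library totals 20 were higher in HSCs and 15 in hepatocytes. Sptlc1, a subunit of the first enzyme of sphingolipid synthesis, had 35.8, 35.4, 38.5 and 37.6 CPM in HSC libraries, against 33.8, 30.9, 38.9 and 37.1 CPM in hepatocyte libraries, with overlapping groups (log2 fold change 0.066, SE 0.10, edgeR adjusted p = 0.557), and on library totals it was called higher in HSCs at 0.76. Ugcg, the glucosylceramide synthase, averaged 30.8 ± 3.17 CPM in HSCs and 33.5 ± 5.61 CPM in hepatocytes, and Smpd1, the acid sphingomyelinase, averaged 82.9 ± 8.34 and 95.4 ± 32.9 CPM in HSCs and hepatocytes (SD, n = 4 each), neither called. On library totals both were called higher in HSCs, Ugcg at 0.57 and Smpd1 at 0.51. Smpd1 was called in opposite directions against the hepatocyte pairs, higher in HSCs against replicates 1 and 2 (0.33, edgeR adjusted p = 0.0386) and lower against replicates 3 and 4 (-0.58, edgeR adjusted p = 0.000689).

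Ceramide synthases differed by member. Cers2, which makes very-long-chain ceramides, averaged 216 ± 12.0 CPM in HSCs and 666 ± 191 CPM in hepatocytes, a lower level in HSCs (log2 fold change -1.62, edgeR adjusted p = 1.96e-06). Cers4 averaged 56.5 ± 4.84 CPM in HSCs and had no count in hepatocytes, at least 1493-fold higher in HSCs, and Cers5 averaged 70.1 ± 3.75 CPM in HSCs and 0.207 ± 0.15 CPM in hepatocytes (SD, n = 4 each). Degs1, which completes ceramide synthesis, had 335, 328, 377 and 387 CPM in HSC libraries, against 99.7, 108, 151 and 131 CPM in hepatocyte libraries (log2 fold change 1.55), and Asah1, the acid ceramidase, had 172, 187, 207 and 187 CPM in HSC libraries, against 55.1, 55.5, 74.4 and 65.3 CPM in hepatocyte libraries (log2 fold change 1.59). Neither overlapped. Ephx1, an epoxide hydrolase, averaged 648 ± 24.8 CPM in HSCs and 403 ± 84.4 CPM in hepatocytes (log2 fold change 0.69, edgeR adjusted p = 0.003). Enpp2, which makes lysophosphatidic acid, averaged 15.3 ± 4.08 CPM in HSCs and 76.7 ± 24.4 CPM in hepatocytes, and Ptgds, a prostaglandin D synthase, averaged 0.0868 ± 0.0899 and 30.9 ± 8.10 CPM in HSCs and hepatocytes (SD, n = 4 each).

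In a set of 40 listed pairs of related genes, 15 were split, as the members were called in opposite directions. Of all tested genes 43.2% were higher in HSCs and 35.9% higher in hepatocytes, so many pairs of unrelated genes would split too. Fabp1 enters more than 1 pair. Fabp4, Fabp7 and Slc27a3, the HSC-higher members of split pairs, had only 0.495, 0.466 and 0.505 CPM in HSCs. In 14 pairs both were higher in hepatocytes and in 3 (Colec10 with Colec11, Gdf2 with Bmp10, Rarg with Rarb) both were higher in HSCs. The split pairs include Scd1 with Scd2, Fads1 with Fads3, Soat2 with Soat1, Masp2 with Masp1 and Igfbp1 with Igfbp3, where the first was higher in hepatocytes and the second in HSCs. Angptl6, a secreted angiopoietin-like protein with 16.8% of its exon bases over another gene, averaged 1952 ± 131 CPM in HSCs and 4.94 ± 0.962 CPM in hepatocytes (SD, n = 4 each). Lipc and Lpl, related lipases, averaged 1.08 ± 0.419 and 81.4 ± 19.8 CPM in HSCs, against 271 ± 42.8 and 17.6 ± 5.88 CPM in hepatocytes (SD, n = 4 each). The sterol exporters Abcg5 and Abcg1 averaged 0.108 ± 0.102 and 56.6 ± 1.16 CPM in HSCs, against 82.1 ± 10.9 and 0.497 ± 0.528 CPM in hepatocytes (SD, n = 4 each), and LSECs had 112 CPM of Abcg1. The pairs were listed with earlier results known, so the 15 is a description.

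Markers of other liver cells were summed in each library. The 15 endothelial markers summed to 121 to 209 CPM in HSC libraries and 10.2 to 20.9 CPM in hepatocyte libraries, and none was at 0 in either group. Of the 15, 13 were higher in HSCs, where 43.2% of all tested genes were. The 11 Kupffer cell markers summed to 5.03 to 21.6 CPM in HSC libraries and 2.24 to 33.3 CPM in hepatocyte libraries. Of these markers 8 were not called, where 79.1% of all tested genes were called. Against hepatocyte replicates 3 and 4 alone 8 were higher in HSCs, and the share of all genes in that fit is not given here. The 10 cholangiocyte markers summed to 1.32 to 3.03 CPM in HSC libraries and 57.9 to 69.7 CPM in hepatocyte libraries, with 3 at 0 in all HSC libraries and 2 at 0 in all hepatocyte libraries. The 13 mesothelial and portal fibroblast markers summed to 214 to 299 CPM in HSC libraries, most of it Gas1 at 206 CPM, and to 26.5 to 95.2 CPM in hepatocyte libraries. The 10 smooth muscle and activation markers summed to 163 to 277 CPM in HSC libraries and 3.73 to 5.6 CPM in hepatocyte libraries, with Acta2, the actin of activated HSCs, at 5.44 CPM in HSCs and at 0 in hepatocytes. The lymphocyte markers summed to at most 0.435 CPM in HSC libraries and 0.574 CPM in hepatocyte libraries. The blood cell and platelet markers summed to 208 to 299.8 CPM in HSC libraries and 16.7 to 26.5 CPM in hepatocyte libraries, and the HSC sum was mostly Itga2b, an integrin chain of platelets, at 290.2, 270.1, 190.0 and 203 CPM. Pf4, the platelet chemokine, had 11.2 CPM in HSCs and none in hepatocytes. At 0 in all HSC libraries were 4 of the 13 mesothelial and portal fibroblast markers, 1 of the 10 smooth muscle and activation markers, 3 of the 9 lymphocyte markers found and 5 of the 11 blood cell and platelet markers found, against 10, 8, 4 and 8 in all hepatocyte libraries. The part of these cells in the differences was not tested.

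Both cell types were also sampled 12 h and 36 h after diphtheria toxin (titled as Kupffer cell depletion), in other libraries. At 12 h 10662 of 14104 tested genes (75.6%) differed between HSCs and hepatocytes (42.7% higher in HSCs, 32.9% higher in hepatocytes), and at 36 h 10894 (77.2%; 42.9% higher in HSCs, 34.4% higher in hepatocytes). Of the 4362 genes at least 2-fold higher in WT HSCs, 4086 (93.7%) were called higher in HSCs at 12 h and 4242 (97.2%) at 36 h. Of the 3431 at least 2-fold higher in WT hepatocytes, 3206 (93.4%) were called lower in HSCs at 12 h and 3336 (97.2%) at 36 h. The difference between the cell types itself changed at 1298 genes (9.2%) at 12 h, and at 36 h at 1 gene (0.00709%), Rcor3 (log2 change -1.23, edgeR adjusted p = 0.035), with 937 genes under an unadjusted p of 0.05 and 62 called by DESeq2. RLE scaling and no filter on low counts gave 0 calls at 36 h. The 36-library fit scales CPM over all 9 groups, so levels differ slightly from those above.

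C1s1, C1ra and Fn1, not called in WT, were not called at either time. C1s1 had log2 fold changes of HSC over hepatocyte of -0.58 at 12 h and -0.31 at 36 h (edgeR adjusted p = 0.212 and 0.507), C1ra of 0.40 and 0.20, and Fn1 of -0.89 and -0.34 at 12 h and 36 h. A missed threshold does not show equal levels. Apoe was -3.63 at 12 h and -3.82 at 36 h, Clu -1.91 and -1.78, and Plin2 -1.14 and -1.13, all called lower in HSCs. Serping1 was called higher in HSCs at 36 h (1.13, edgeR adjusted p = 0.0162) and not at 12 h (0.83, edgeR adjusted p = 0.0733), and the change of its difference was not called at either time. In the same 36-library fit its WT difference was 0.75 and not called (edgeR adjusted p = 0.103). C2 was higher in HSCs at both times, 1.51 and 2.27.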

How the data were processed

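RNA was sequenced in 36 libraries of mouse HSCs, LSECs and hepatocytes, of which 12 WT libraries enter the main fit and 8 the comparison described. The deposited values are whole-number counts of reads per gene symbol, which the authors made with FastQC 0.11.4, Trimmomatic 0.35, TopHat2 2.1.0 and SAMtools 0.1.18 on mm10, per the submitters' processing notes. What counted the reads, whether strand was used and which gene models were used: not given in the sources used here. The 5 summary lines per file that name no gene were left out (no feature, 5.52 to 8.15%; ambiguous, 0.953 to 1.32% in the 8 libraries).

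Counts were fitted with edgeR 4.0.16 (limma 3.58.1, R 4.3.3; tables with Python 3.11.15): TMM scaling, filterByExpr by group (minimum count 10, minimum total 15), quasi-likelihood test and Benjamini-Hochberg adjustment over all 13389 tested genes, called at an adjusted p of 0.05. Log2 fold changes are HSC over hepatocyte. The 12 h and 36 h values come from a second fit of all 36 libraries. On simulated counts for 13389 genes of the WT comparison, 66% of genes changed 2-fold and 86% of those changed 4-fold were recovered, and 5% of calls were false. In that simulation 100 genes changed by each fold and all others had equal means in the cell types. In the data 79.1% of genes were called, so the simulation did not test the scaling, and its rates need not hold for this comparison. A fold against a group with no count uses a floor of 3 counts over its 4 libraries, which covers counting error only.

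Of the symbols, 98.2% matched GENCODE M21, which gave coordinates and exon lengths. Of 126 named genes, 4 share 10% or more of their exon bases with a gene on the opposite strand (Masp2, Rarb, Pltp and Angptl6), and reads of the 2 cannot be told apart without the strand setting. Near-identical copies (Sult2a1 and Sult2a2, C4b and C4a) are uncertain.

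The named genes were 77 listed genes, the 10 largest differences each way and the 5 smallest differences among shared secreted and among shared lipid genes. A further 36, and list members named with small counts, were named after their values were seen. Of the genes these rules chose, 10 are not reported here. The members, the 25 gene lists (672 genes, 670 found) and the tests were chosen with earlier results of these data known. DESeq2 1.42.0, RLE scaling, library totals, no filter, a replicate block, the 8 libraries alone, each library left out and each hepatocyte pair were tried as alternatives. No libraries were duplicates within the WT groups of HSCs, hepatocytes and LSECs. Libraries of the later times and pairs across groups were not checked.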

Additional observations from a re-analysis of the deposited data

Results flagged for a closer look

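In 19 of 252 sets of 4 libraries, 1 per named gene and cell type, 1 library stood far from the other 3. The nominal chance rate of the rule is about 1 in 20, and the rate in these data was not measured. Most are at levels near 0. In HSC libraries, replicate 1 had 31.0 CPM of Cyp2e1 (others 13.1 to 14.9), 311 CPM of Nr1h4 (others 263 to 268) and 0.116 CPM of Adh4 (others at 0). Replicate 2 had 549.6 CPM of Cfb (others 398 to 419) and 11.8 CPM of Dgat1 (others 17.5 to 18.3). Replicate 3 had 0.898 CPM of Dmgdh, 2.99 CPM of Igfbp2 and 74.9 CPM of Rara (others 90.9 to 93.6), and replicate 4 had 0.0551 CPM of Mlxipl (others at 0).

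In hepatocyte libraries, replicate 1 had 0.471 CPM of Gdf2, 8.39 CPM of C6 (others 3.34 to 4.07) and 0.0943 CPM of Cpt1c. Replicate 2 had 0.194 CPM of Colec11, 1.41 CPM of Soat1 (others 0 to 0.141) and 103.8 CPM of G0s2, the lipase inhibitor gene (others 31.5 to 41.6). Replicate 3 had 0.229 CPM of Colec10, 334.8 CPM of Lipc (others 242 to 257), 0.860 CPM of Col3a1 and 0 CPM of Itga2b (others 0.330 to 0.388).

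For 10 of 126 named genes the difference between HSCs and hepatocytes at 12 h after diphtheria toxin was not the WT difference. At 36 h this held for 0. The change itself was tested (edgeR interaction, adjusted over 14104 genes). Of all tested genes 1298 (9.2%) changed at 12 h, so the named genes did not exceed that share. Masp1 had 731 CPM in HSCs and 190.1 CPM in hepatocytes at 12 h, against 1659 and 159 CPM in WT, a log2 change of -1.44 (edgeR adjusted p = 0.0478). Igfbp4 had 218 and 2336 CPM in HSCs and hepatocytes at 12 h, against 563 and 2398 CPM in WT (-1.34, edgeR adjusted p = 0.00039). Acaa2 had 164 and 2000.2 CPM in HSCs and hepatocytes at 12 h, against 489.5 and 2069 CPM in WT (-1.53, edgeR adjusted p = 0.000749). Ephx1 turned from higher to lower in HSCs, with 247 and 458 CPM in HSCs and hepatocytes at 12 h, against 657 and 400.4 CPM in WT (-1.60, edgeR adjusted p = 0.00192). The change was 0.83 for Acsl4, 2.86 for Soat1 and 4.58 for Rgs16, all toward HSCs. Rgs16 had 117 CPM in WT hepatocytes and 26.7 CPM at 12 h, with HSCs at 0.0463 and 0.272 CPM. Soat1 had 22.8 CPM in WT HSCs and 29.3 CPM at 12 h, and its change rests on hepatocyte means of 0.412 and 0.0704 CPM. Acsl4 had 117 CPM in WT HSCs and 189 CPM at 12 h, with hepatocytes at 157 and 143 CPM. It was -1.40 for Enpp2, -1.15 for Gata4 and -0.71 for Asah1, all toward hepatocytes.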

How the results depend on the processing

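Of 125 named genes tested, 109 kept their direction and call in all 18 alternatives. Calls between WT HSCs and hepatocytes numbered 10376 to 10614 with 1 library left out and 9958 to 11287 otherwise, and genes counted as expressed by both 122 to 123 and 96 to 136. On library totals 3185 genes were higher in hepatocytes; C1s1 was 0.40, Fn1 0.22, Acsl4 0.23, Ugcg 0.57, Plin3 0.52 and Smpd1 0.51. The change at 36 h had 62 calls with DESeq2, 0 with RLE scaling and 0 with no filter. Against hepatocyte replicates 1 and 2, C1s1 was 0.13, Fn1 0.46, Abca1 0.10, Ugcg 0.011, Plin3 0.047 and Smpd1 0.33. Against replicates 3 and 4, C1ra was -0.13 and Sptlc1 -0.044. With replicates 1 and 2 of both cell types alone, a choice made after seeing the data, C4b was 0.10, C1s1 0.34, Fn1 0.49, Abca1 0.23, Plin3 0.037 and Smpd1 0.17; with replicates 3 and 4 alone, C1ra was -0.56. Of these, C1ra was called in both directions (1.04, adjusted p = 0.000442, in replicates 1 and 2; adjusted p = 0.00124 in 3 and 4), and replicates 3 and 4 alone gave edgeR calls lower in HSCs for C1s1 (-0.89, adjusted p = 0.00117), Fn1 (-1.11, adjusted p = 0.00192), Abca1 (-1.56, adjusted p = 3.00e-06), Plin3 (-0.35, adjusted p = 0.0177) and Smpd1 (-0.44, adjusted p = 0.00141). With 1 library left out, Fn1 was called without hepatocyte replicate 2 (-0.74, adjusted p = 0.044), Plin3 was called without hepatocyte replicate 1, and Abca1 was called without HSC replicate 1 or hepatocyte replicate 1 or 2, and by DESeq2 on all libraries. The cause of these changes was not tested. With the replicate number as a block, C4b was -1.30 (adjusted p = 0.0643), the only named call lost; the correlations of same-numbered libraries (-0.0842, 0.0343, -0.0215 and 0.0123) do not pair them, and none was highest with its own number. The 4 libraries a group limit precision, and genes near 0 in a group have folds set by counting.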
